A study of Mus musculus with 3 samples.

Results

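A set of 9 genes of neutrophil attraction and neutrophil content was followed across cell types of the mouse pancreas. They were the receptor Cxcr2, its ligands Cxcl1, Cxcl2 and Cxcl3, the G-CSF receptor Csf3r, the calcium-binding pair S100a8 and S100a9, and the secreted or granule genes Retnlg and Mmp9. They were chosen by name for their known roles, with earlier results of these data known. All 9 were present among the 31053 genes of the deposited matrices. The cells were live CD45+ cells sorted from the pancreas, measured by droplet single-cell RNA sequencing in 3 libraries. The PBS library came from mice given PBS. The other libraries came from mice given WGP, a particulate beta-glucan from yeast that was injected into the peritoneal cavity, 3 days (3-day WGP) or 7 days (7-day WGP) before the mice were euthanized. The study used mice of both sexes, 6 to 8 weeks old, among them wild-type C57BL/6 mice, other strains and knockouts. The labels give neither the genotype, the sex nor the number of mice behind a library, and name no knockout for any of the 3. With 1 library a group there was no replicate, so no difference was tested over samples, and every interval given is a 95% interval for counting error only. Such an interval says nothing about the spread between mice. Values at 3 days and at 7 days are those of the 3-day WGP and the 7-day WGP library.

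Neutrophils leave the bone marrow and enter inflamed tissue along gradients of ELR-motif CXC chemokines. In the mouse Cxcl1, Cxcl2 and Cxcl3 are such chemokines, and Cxcr2 on the neutrophil is their receptor. Csf3r receives G-CSF, the growth factor that drives the making and release of neutrophils. S100a8 and S100a9 form calprotectin, an abundant cytosolic protein complex of neutrophils, which binds metal ions and is also made by monocytes. Retnlg encodes a resistin-like protein of neutrophils, and Mmp9 encodes the gelatinase stored in tertiary granules. Granule genes are transcribed in order while neutrophils mature in the marrow, so that Mpo and Elane mark early stages, Camp, Ltf and Ngp mark later ones, and Mmp9 is late.

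The 3 ligand genes lie in a cluster of chemokine genes on mouse chromosome 5 (GRCm38, GENCODE vM21), all on the forward strand within 119836 bases. Cxcl3 (ENSMUSG00000029379) spans chr5:90786103-90789600, Cxcl1 (ENSMUSG00000029380) spans chr5:90891241-90893115 and Cxcl2 (ENSMUSG00000058427) spans chr5:90903871-90905938, 10756 bases from Cxcl1. S100a8 (ENSMUSG00000056054, chr3:90668978-90670035, forward strand) and S100a9 (ENSMUSG00000056071, chr3:90692632-90695721, reverse strand) are also neighbours, 22597 bases apart. The others share a chromosome with none of the 9: Cxcr2 (ENSMUSG00000026180, chr1:74153989-74161246), Csf3r (ENSMUSG00000028859, chr4:126024550-126044440), Retnlg (ENSMUSG00000022651, chr16:48872621-48874496) and Mmp9 (ENSMUSG00000017737, chr2:164940780-164955850), all on the forward strand. Each is annotated as protein coding and overlaps no other gene. Of the 50-base stretches in the last 500 bases of their transcripts, where the 3' chemistry reads, none was shared with another gene for 7 of the 9. For Cxcr2 2.22% were shared and for Csf3r 13.3%, so levels of Csf3r carry some uncertainty from reads that match elsewhere.

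The ligand promoters are shown because the 3 genes were at least 2-fold higher after WGP in the neutrophil-like cells described below. In those cells 18.3% of all counted genes were also at least 2-fold higher at 3 days. The stretches run from 100 bases before to 4 bases after the transcription start (RefSeq promoters, GRCm38.p6), and capitals mark matches to GGNNTTTCC, the letters of the NF-kB motif, on either strand.
Cxcl1 (chr5:90891145-90891249, forward strand): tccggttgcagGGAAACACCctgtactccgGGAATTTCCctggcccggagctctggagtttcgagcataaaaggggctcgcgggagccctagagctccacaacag
Cxcl2 (chr5:90903799-90903903, forward strand): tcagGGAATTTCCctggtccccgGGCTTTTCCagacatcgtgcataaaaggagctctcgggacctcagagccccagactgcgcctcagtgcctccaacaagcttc
Cxcl3 (chr5:90786001-90786105, forward strand): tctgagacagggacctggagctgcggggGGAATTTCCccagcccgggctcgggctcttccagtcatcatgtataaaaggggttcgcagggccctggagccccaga
Counting the start base as 0, the matches began at -89 and -70 in Cxcl1, at -96 and -77 in Cxcl2 and at -72 in Cxcl3. Of 32851 promoters of 300 bases searched in the same way, 5.82% held a match. Promoters were given for 8 of the 9 genes, and none of Cxcr2, Csf3r, S100a8, S100a9 and Retnlg held these letters. TTGCNNAA, the letters of C/EBP factors, is in 10.8% of all promoters and was found in S100a9 (at -236) and Retnlg (at -246). GAGGAAGT, the letters of PU.1, is in 3.2% of all promoters and was found in S100a8 (at -172).
Windows of the S100 pair are shown because both genes were among the most abundant in neutrophil-like cells, and capitals mark the matches. The S100a8 match lies on the reverse strand of the gene (chr3:90668879-90668937, forward strand): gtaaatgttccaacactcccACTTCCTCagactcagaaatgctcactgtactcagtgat
The S100a9 gene and its match lie on the reverse strand (chr3:90695919-90695971): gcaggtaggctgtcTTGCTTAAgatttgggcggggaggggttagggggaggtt
A match in letters is a description of the sequence and was not tied to any measured binding.

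The libraries held 48219246 to 56849043 unique molecular identifiers (UMIs) each, and 4343 to 5280 cells were kept per library out of 6011 to 7366 barcodes with at least 300 UMIs (median depth 4962 to 7104 UMIs). Between 7 and 18 barcode sequences with at least 300 UMIs were shared by any pair of libraries. The mix of sexes differed between libraries: cells with Xist and no Y-linked UMIs numbered 1954 in PBS, 448 at 3 days and 1195 at 7 days, against 1670, 2387 and 1816 cells with Y-linked UMIs and no Xist. Treatment, sex mix and any other difference between the libraries therefore cannot be told apart. Cell types were rebuilt from clusters with marker lists that held none of the 9 genes, and are called "-like" for that reason. The study had used several of the 9 genes to recognise neutrophils, which was not done here.

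Neutrophil-like cells were a small class that took a larger share of the cells after WGP. There were 80 such cells in PBS (1.52% of kept cells, 1.20 to 1.88), 233 at 3 days (4.70%, 4.13 to 5.33) and 189 at 7 days (4.35%, 3.76 to 5.0). On the log2 scale the share was 1.63 (1.27 to 2.00) above PBS at 3 days and 1.52 (1.15 to 1.89) above it at 7 days. All 15 neutrophil markers, among them Ly6g, Hdc and Il1r2, had UMIs in the class in each library. These markers named the class, so this is a description of it and no independent check. Their summed level was 14980 CPM in PBS, 14087 CPM at 3 days and 15422 CPM at 7 days, where CPM is the usual scaling of the UMIs of a gene to the total UMIs of the class. The 13 monocyte and macrophage markers summed to 11481, 4746 and 5583 CPM in the same cells. The 8 mast cell and basophil markers were at 0 CPM in PBS, 632 CPM at 3 days (661 UMIs of 7 markers, all in cluster 14) and 1.81 CPM at 7 days. The part of either list in the results was not tested. The class contained 20 Xist cells and 6 Y cells in PBS, 10 and 91 at 3 days, and 18 and 45 at 7 days. Among Xist cells alone the log2 share ratio was 1.12 at 3 days and 0.56 at 7 days, and among Y cells alone 3.41 and 2.79.

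The class joined a pair of clusters that differed in nearly all of these genes. Cluster 14, led by Hdc, G0s2, Asprv1, Slc7a11, Stfa2l1 and Il1b, held 49 cells in PBS, 221 at 3 days and 183 at 7 days. Cluster 25, led by the granule genes Camp, Ngp, Lcn2, Ltf and Wfdc21, held 31, 12 and 6 cells. Camp, the cathelicidin of secondary granules, was at 41798, 28967 and 38364 CPM in cluster 25 and at 7.89, 7.10 and 2.28 CPM in cluster 14. The make-up of the class thus differed between libraries: cluster 25 was 38.8% of the neutrophil-like cells and 74.2% of their UMIs in PBS, against 5.15% of cells and 19.2% of UMIs at 3 days and 3.17% and 20.5% at 7 days. The levels of the genes followed are therefore given below for the class and for cluster 14 alone. Shares of cells, medians over cells, the spread over cells and the levels of related genes are for the class, except where a cluster is named.

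**Figure D1:**
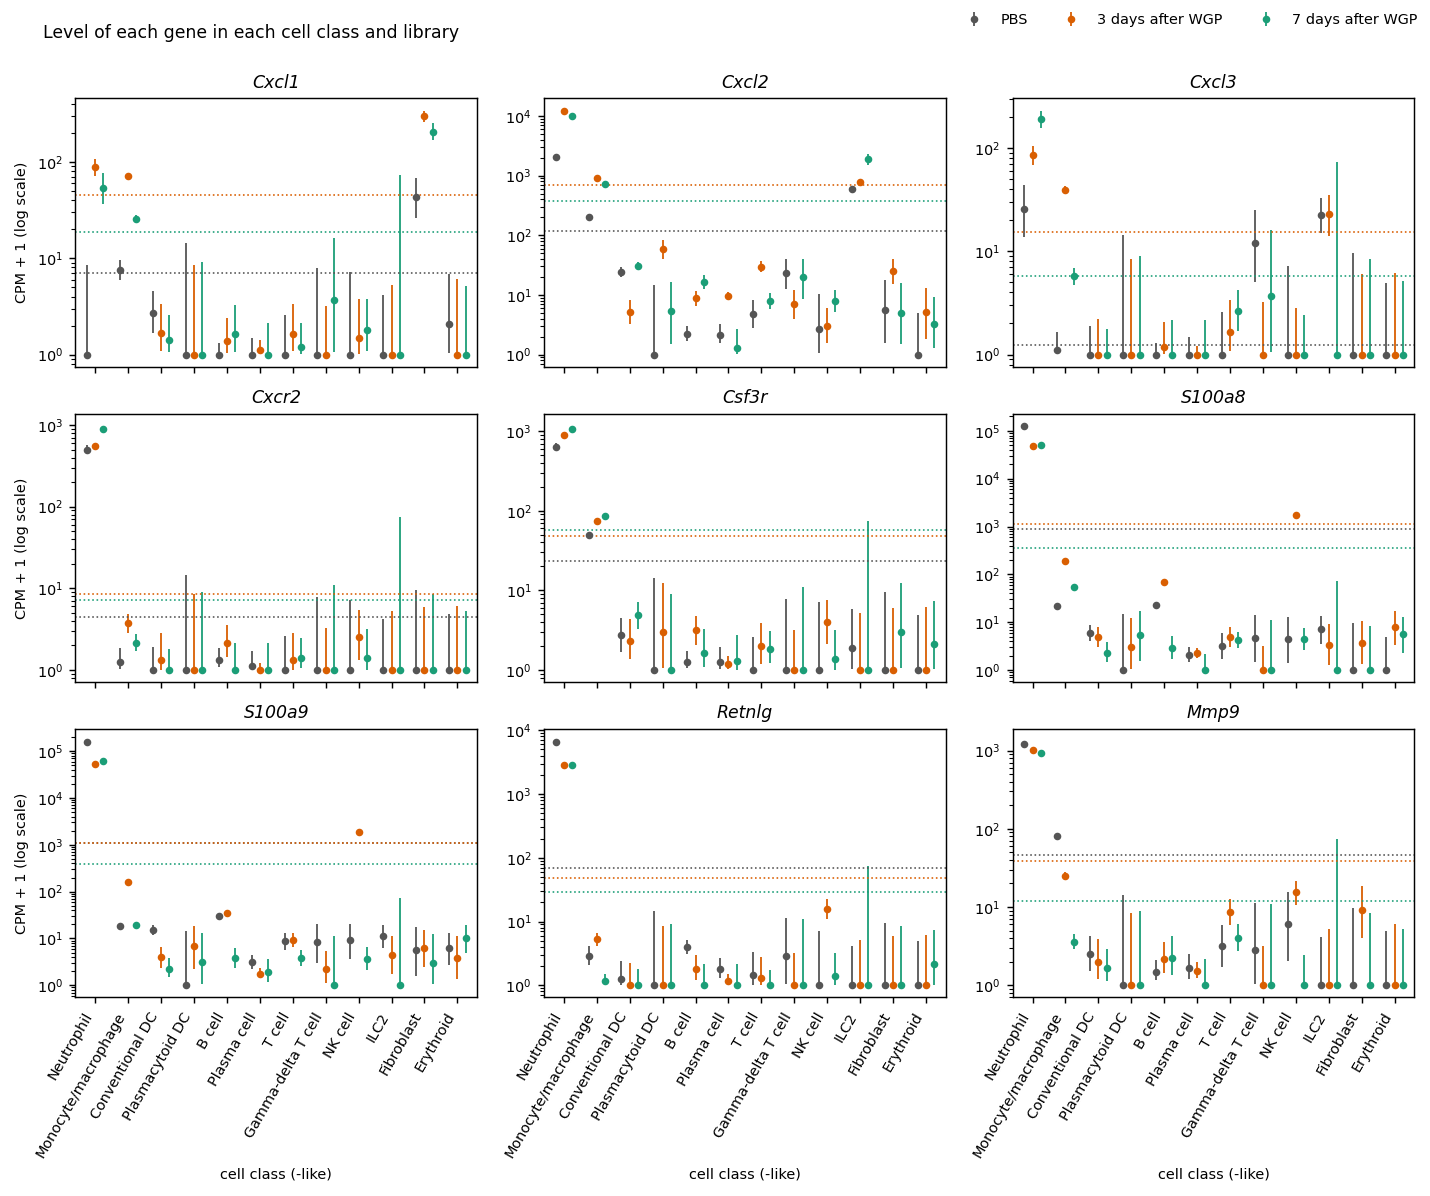
Level of each of the 9 genes (CPM + 1, log axis) in 12 cell classes of the PBS (grey), 3-day WGP (orange) and 7-day WGP (green) libraries. Points are sums over all cells of a class, bars are 95% counting intervals, and dotted lines give the level of the gene in barcodes of 1 to 100 UMIs of the same library; Cxcr2, S100a8, S100a9 and Retnlg stand highest in neutrophil-like cells, Cxcl1 in fibroblast-like cells, and Cxcl2 is also high in monocyte/macrophage-like and ILC2-like cells.

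Some of the 9 genes were found mainly in neutrophil-like cells and others were spread over several classes. Neutrophil-like cells held 81.7% to 85.2% of all Cxcr2 UMIs of a library, 82.0% to 90.1% of S100a9, 79.1% to 87.5% of S100a8 and 82.1% to 87.7% of Retnlg. Mmp9 was divided, with 36.7% of its UMIs in neutrophil-like cells in PBS, 63.6% at 3 days and 74.4% at 7 days. Csf3r had 33.5%, 44.3% and 23.8% of its UMIs there, beside 44.8%, 39.8% and 56.7% in monocyte/macrophage-like cells. The ligands were divided over more classes. Neutrophil-like cells held at most 44.8% of the UMIs of a ligand in a library, and at 3 days they held more Cxcl2 than any other class. Monocyte/macrophage-like cells held 36.6%, 58.2% and 62.4% of Cxcl1 UMIs and 34.3%, 35.9% and 57.5% of Cxcl2 UMIs in PBS, 3-day WGP and 7-day WGP, whereas neutrophil-like cells held 0%, 6.63% and 4.48% of Cxcl1 and 20.4%, 44.4% and 25.9% of Cxcl2. The main holder of Cxcl3 differed from library to library: ILC2-like cells held 51.0% of its few UMIs in PBS, monocyte/macrophage-like cells 70.0% at 3 days and neutrophil-like cells 44.8% at 7 days.

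**Figure D2:**
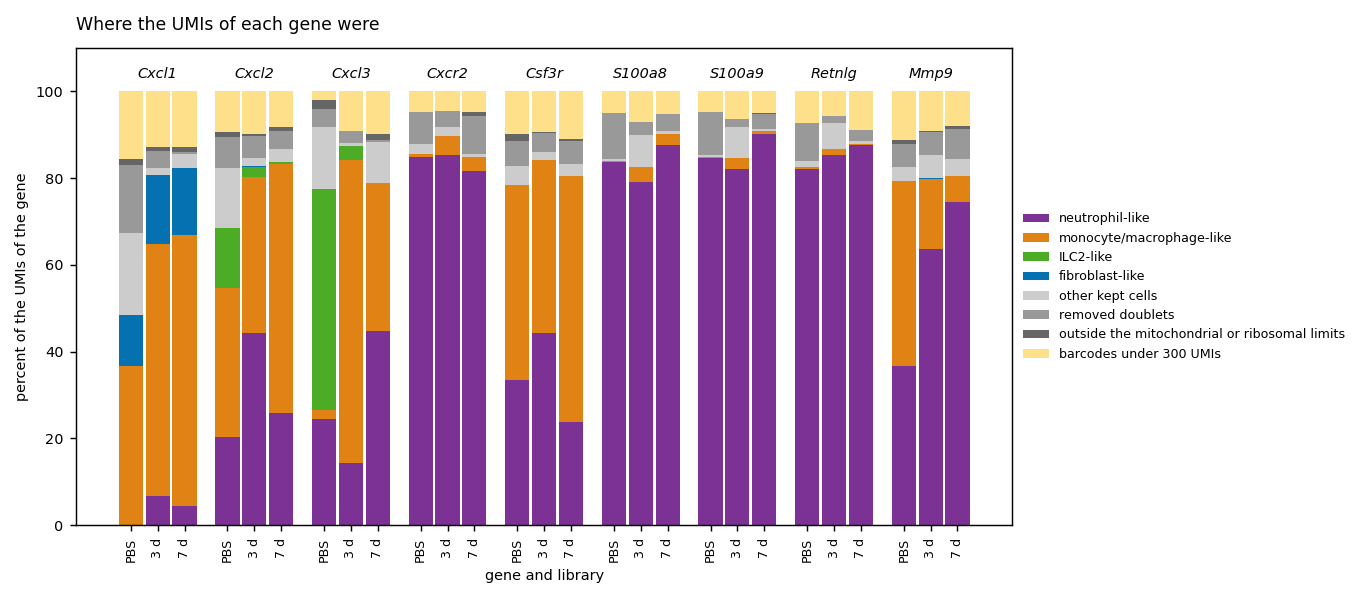
Percent of the UMIs of each gene (vertical axis) found in each cell class, in removed doublets, in barcodes outside the quality limits and in barcodes under 300 UMIs, 1 bar per library (PBS, 3 d and 7 d after WGP). The Cxcr2, S100a8, S100a9 and Retnlg bars are mostly neutrophil-like, at 79.1% to 90.1%, and the ligand bars are divided over several classes.

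In neutrophil-like cells the 3 ligands were higher after WGP, and S100a8, S100a9 and Retnlg were lower. At least 2-fold higher than PBS were 3 of the 9 genes (Cxcl1, Cxcl2 and Cxcl3) at 3 days, against 18.3% of the 6262 genes with at least 20 UMIs in the class, and the same 3 at 7 days, against 14.6%. At least 2-fold lower were 3 of the 9 (S100a8, S100a9 and Retnlg) at 3 days, against 4.69% of those genes, and the same 3 at 7 days, against 4.34%. The median log2 ratio of the 9 was 0.15 at 3 days and 0.75 at 7 days, beside 0.36 and 0.19 over all tested genes. All log2 ratios compare levels after 10 CPM are added to each, and both times are set against the same PBS library. All 9 genes had enough UMIs to be counted in this class. Cxcl1 and Cxcl3, with 0 and 12 UMIs in PBS, had them only through the WGP libraries, so their count lends no support. Without them Cxcl2 is the only gene counted as higher, so the number of higher genes is no result about the 9. The 9 genes were also chosen with earlier results of these data known, so neither count is independent support.

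Cxcl2, the ligand with by far the highest level, stood at 2088 CPM (1025 UMIs) in neutrophil-like cells of PBS, 12106 CPM (12668 UMIs) in 3-day WGP and 9996 CPM (5520 UMIs) in 7-day WGP. Its log2 ratio to PBS was 2.53 (2.44 to 2.62) at 3 days and 2.25 (2.16 to 2.35) at 7 days. The median cell of the class held 2.5 UMIs in PBS, 33 at 3 days and 17 at 7 days, and the clusters made up different shares of these cells in each library. With each cell thinned to 300 UMIs, 40% of the cells in PBS (29.2 to 51.6), 74.7% at 3 days (68.6 to 80.1) and 69.3% at 7 days (62.2 to 75.8) had a Cxcl2 UMI. Without thinning the shares were 60%, 87.6% and 81.5%. In cluster 14 alone the thinned shares were 63.3%, 78.3% and 71.0%. In B cell-like cells, which are not known to make this chemokine, the thinned shares were 0%, 0.118% and 0.951%; their median depths were 3757, 4121.5 and 4891.5 UMIs beside 2927, 3537 and 2267 UMIs for neutrophil-like cells. In cluster 14 alone Cxcl2 was at 6729, 14887 and 12163 CPM, with log2 ratios to PBS of 1.14 (1.04 to 1.24) and 0.85 (0.75 to 0.96). The cluster 14 ratios had the same direction as those of the class and were smaller, and at 7 days the ratio was under 2-fold. In cluster 25 Cxcl2 was at 472, 403 and 1614 CPM (172, 81 and 183 UMIs), of which single cells held 71, 71 and 123 UMIs.

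Cxcl1 had no UMI in the neutrophil-like cells of PBS, 91 UMIs (87.0 CPM) in 3-day WGP and 29 UMIs (52.5 CPM) in 7-day WGP. Against a floor of 3 UMIs in the class in PBS, the level was at least 14.2-fold higher at 3 days and at least 8.59-fold higher at 7 days. All of these UMIs were in cluster 14, in 12 cells at 3 days and 10 cells at 7 days; against the floor of cluster 14 the bounds were 4.55-fold and 2.79-fold. Cxcl3 was at 24.5 CPM (12 UMIs) in PBS, 84.1 CPM (88 UMIs) at 3 days and 188 CPM (104 UMIs) at 7 days, with log2 ratios to PBS of 1.45 (0.81 to 2.09) and 2.53 (1.89 to 3.16). In cluster 14 it was at 55.2, 104 and 237 CPM, and its log2 ratio of 0.81 (-0.14 to 1.75) at 3 days was within counting error of PBS, while 1.92 (0.98 to 2.86) at 7 days was not. Both ligands were carried by few cells: Cxcl3 was found in 7, 15 and 24 cells of the class.

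The receptors differed little in the class as a whole and had the opposite direction in cluster 14. Cxcr2 stood at 499 CPM (245 UMIs) in PBS, 556 CPM (582 UMIs) at 3 days and 889 CPM (491 UMIs) at 7 days, with log2 ratios to PBS of 0.15 (-0.06 to 0.36) and 0.82 (0.60 to 1.04). In cluster 14 it was at 1491, 646 and 1064 CPM, a log2 ratio of -1.19 (-1.43 to -0.96) at 3 days and -0.48 (-0.72 to -0.24) at 7 days. In cluster 25 it was at 154, 179 and 212 CPM. Cxcr2 was thus several times higher in cluster 14 than in cluster 25 of each library, and the PBS class was weighted towards cluster 25. With TMM scaling the 3-day ratio of the class was -0.20, so its direction also turned with the scaling.

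Csf3r was at 634 CPM in PBS, 889 CPM at 3 days and 1074 CPM at 7 days, with log2 ratios to PBS of 0.48 (0.30 to 0.66) and 0.75 (0.56 to 0.95) in the class. In cluster 14 it was at 2138, 1070 and 1326 CPM, which gave log2 ratios to PBS of -0.99 (-1.19 to -0.80) and -0.68 (-0.89 to -0.48). In cluster 25 it was at 110, 124 and 97 CPM. With TMM scaling the Csf3r ratio of the class was 0.12 at 3 days, below its counting interval, and 0.55 at 7 days. Like Cxcr2, Csf3r was higher in cluster 14 than in cluster 25 in each library, and lower after WGP than in PBS within cluster 14.

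S100a9 was at 160312 CPM in neutrophil-like cells of PBS (78681 UMIs), at 53399 CPM at 3 days (55880 UMIs) and at 60873 CPM at 7 days (33614 UMIs). The log2 ratio was -1.59 (-1.60 to -1.57) at 3 days and -1.40 (-1.42 to -1.38) at 7 days. S100a8, its partner, was at 125439, 47420 and 51254 CPM, with log2 ratios to PBS of -1.40 (-1.42 to -1.39) and -1.29 (-1.31 to -1.27). Together the pair made up 28.6% of the UMIs of the class in PBS, 10.1% at 3 days and 11.2% at 7 days. When they were taken out of the total, Cxcl1, Cxcl2, Cxcl3 and Retnlg still differed at least 2-fold from PBS at both times, in the same directions, and the Cxcr2 ratio at 3 days became -0.17. The median cell had 273.5 S100a9 UMIs in PBS and 48 in each of the WGP libraries. Summed over all kept cells of a library, S100a9 was at 1856, 1301 and 877 CPM, with log2 ratios to PBS of -0.51 (-0.52 to -0.49) and -1.07 (-1.09 to -1.05); in such a sum the number of neutrophil-like cells and their RNA content cannot be told apart.

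For this pair the libraries differed less within each cluster than in the class. In cluster 25, S100a9 was at 193542, 150797 and 173688 CPM and S100a8 at 152623, 133923 and 148386 CPM, so the libraries differed by at most 0.36 on the log2 scale. In cluster 14, S100a9 was at 64880, 30250 and 31722 CPM, with log2 ratios to PBS of -1.10 (-1.14 to -1.06) and -1.03 (-1.07 to -0.99), and S100a8 was at 47366, 26862 and 26155 CPM, with -0.82 (-0.86 to -0.78) and -0.86 (-0.90 to -0.81). The pair was therefore lower after WGP within cluster 14 as well, by less than in the class, and S100a8 was then under 2-fold. Among Xist cells the S100a9 ratio of the class was -0.08 at 3 days and -1.58 at 7 days, and among Y cells -2.46 and -1.01. The Xist cells of 3-day WGP numbered 10 and the Y cells of PBS numbered 6.

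Retnlg was at 6469 CPM in PBS, 2892 CPM at 3 days and 2888 CPM at 7 days in the class, a log2 ratio of -1.16 (-1.23 to -1.09) and -1.16 (-1.25 to -1.07). Unlike the S100 pair it stood further from PBS in cluster 14, at 6406, 1463 and 1974 CPM, with log2 ratios to PBS of -2.12 (-2.25 to -2.0) and -1.69 (-1.83 to -1.56). In cluster 25 it was at 6491, 8903 and 6429 CPM. In PBS the clusters had nearly the same Retnlg level, and after WGP cluster 14 was well below cluster 25. Cells with a Retnlg UMI were 60% of the thinned neutrophil-like cells in PBS (48.4 to 70.8), 18.0% at 3 days (13.3 to 23.6) and 17.5% at 7 days (12.3 to 23.6); unthinned, they were 82.5%, 40.3% and 35.4%. In B cell-like cells the thinned shares were 0.102%, 0% and 0%.

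Mmp9 differed less from PBS than S100a8, S100a9 and Retnlg did in the class and in cluster 14, and more than they did in cluster 25. It was at 1206, 1020 and 936 CPM in the class, with log2 ratios to PBS of -0.24 (-0.38 to -0.10) and -0.36 (-0.53 to -0.19), and at 1262, 1100 and 1032 CPM in cluster 14, with -0.20 (-0.44 to 0.04) and -0.29 (-0.55 to -0.03). In cluster 25 it was at 1187, 682 and 564 CPM, a log2 ratio of -0.79 (-1.06 to -0.52) at 3 days and -1.06 (-1.43 to -0.69) at 7 days.

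**Figure D3:**
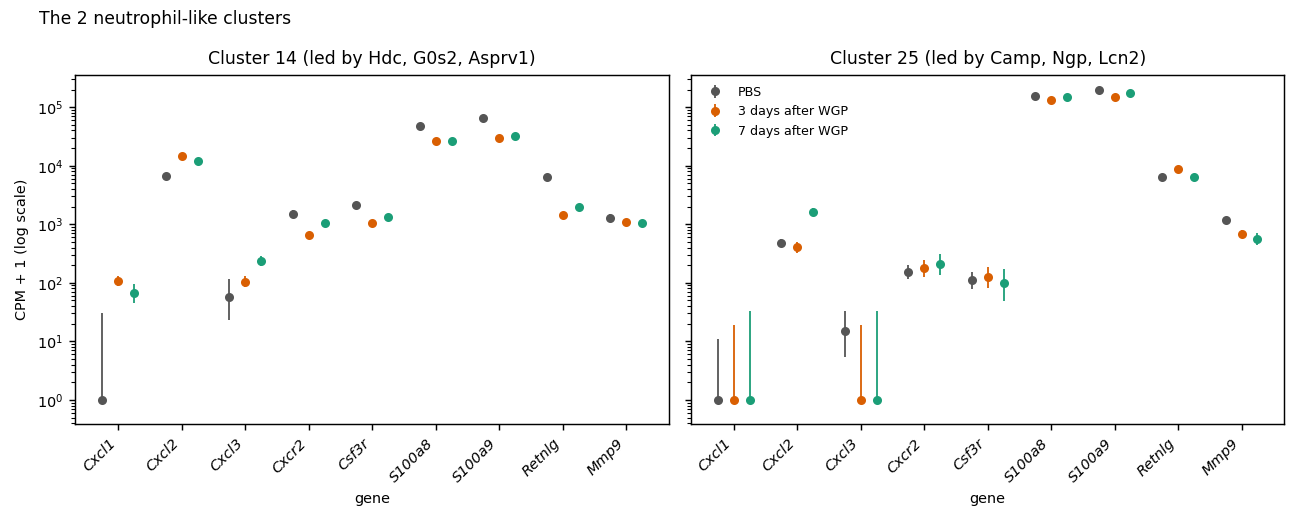
Level of the 9 genes (CPM + 1, log axis) in cluster 14 (left) and cluster 25 (right) of the PBS, 3-day WGP and 7-day WGP libraries, with 95% counting intervals. S100a8 and S100a9 are between 133923 and 193542 CPM in cluster 25 of each library and between 26155 and 64880 CPM in cluster 14, while Cxcl2, Cxcr2 and Csf3r are higher in cluster 14.

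**Figure D4:**
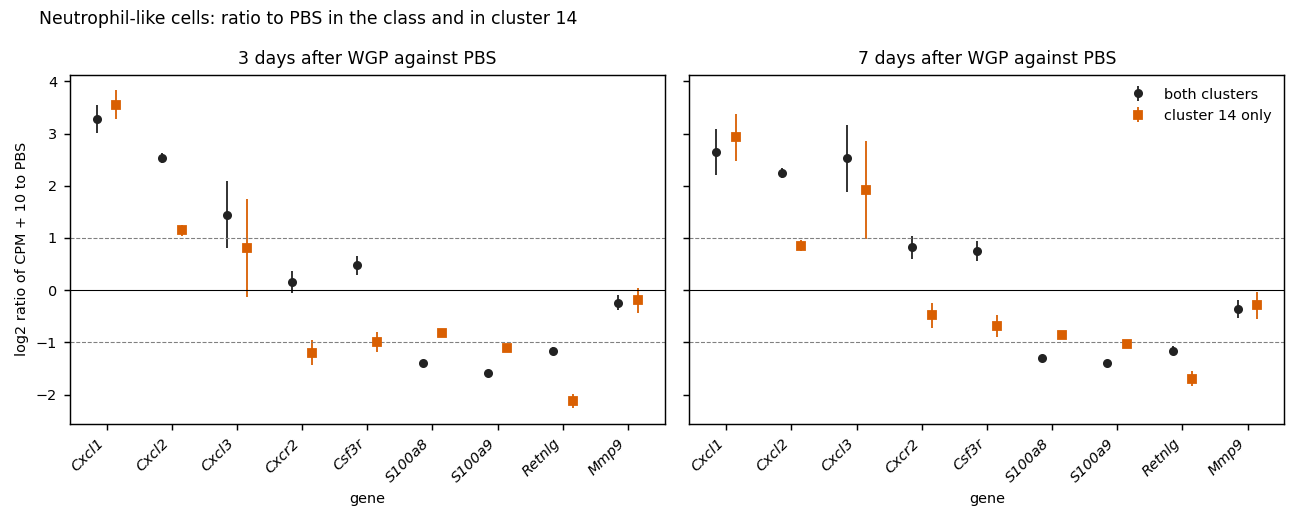
Log2 ratio of CPM + 10 to PBS for each gene, in all neutrophil-like cells (circles) and in cluster 14 only (squares), at 3 days (left) and 7 days (right) after WGP; bars are 95% counting intervals and dashed lines mark 2-fold. Cxcr2 and Csf3r are above 0 in the class and below 0 in cluster 14, Retnlg is lower in cluster 14 than in the class, and the ligands are above 0 in both.

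Many neutrophil-like cells had UMIs of both the receptor and a ligand. Cells of the class with Cxcr2 did not have a ligand much more often than the other cells, and at 7 days they had one less often. In PBS 65 of the 80 cells had a Cxcr2 UMI, 49 had a UMI of Cxcl1, Cxcl2 or Cxcl3, and 40 had both. In 3-day WGP the numbers were 137, 204 and 121 of 233 cells, and in 7-day WGP 128, 154 and 99 of 189 cells. Cells with a ligand were 61.5% of the Cxcr2 cells and 60% of the others in PBS, 88.3% and 86.5% at 3 days, and 77.3% and 90.2% at 7 days. In cluster 14 alone they were 73.2% and 87.5% in PBS, 91.5% and 89.1% at 3 days, and 77.4% and 93.2% at 7 days. These shares follow the depth of each cell as well as its content.

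Gene levels were uneven between cells of the class. The 24 cells with the most UMIs of a gene in 3-day WGP, about 10% of the class, held 39.0% of Cxcl2, 67.4% of S100a9 and 89.9% of Retnlg. In PBS, the top 8 cells held 46.1%, 46.4% and 47.8% of the same genes. The S100a9 and Retnlg UMIs of the 3-day WGP library were therefore held by a smaller share of the cells than in PBS, which was not so for Cxcl2.

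Monocyte/macrophage-like cells also had more ligand RNA after WGP. The class held 799 cells in PBS (15.1% of kept cells), 739 at 3 days (14.9%) and 1409 at 7 days (32.4%). It joined 3 clusters that took very different parts in the libraries: cluster 8, led by the resident-macrophage genes Pf4, Mrc1 and Folr2 (640, 118 and 33 cells), cluster 10, led by Saa3, Arg1 and Gpnmb (6, 400 and 304 cells), and cluster 0, led by Ly6i, Cxcl9 and Cxcl10 (153, 221 and 1072 cells). At least 2-fold higher than PBS were 5 of the 9 genes at 3 days (Cxcl1, Cxcl2, Cxcl3, S100a8 and S100a9), against 2.39% of 11938 tested genes, and 3 at 7 days (Cxcl1, Cxcl2 and S100a8), against 2.81%. At least 2-fold lower was Mmp9, 1 of the 9, at both times, against 2.51% of the genes at 3 days and 3.98% at 7 days. The median log2 ratio of the 9 was 2.11 at 3 days and 0.54 at 7 days, beside -0.06 and -0.11 over all tested genes. Cxcl3, Cxcr2 and Retnlg had 1, 2 and 16 UMIs in PBS and were counted only through the WGP libraries, so the place of Cxcl3 in the count lends no support. S100a9 at 3 days was at 0.27, under 2-fold, without cells that had at least 6 of the 15 neutrophil markers. The PBS levels of S100a8 and S100a9, to which their ratios refer, were background by a measure given below. As the 9 genes were chosen with earlier results of these data known, the counts are no independent support.

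Cxcl2 was at 203 CPM (1721 UMIs) in monocyte/macrophage-like cells of PBS, 908 CPM (10238 UMIs) in 3-day WGP and 736 CPM (12254 UMIs) in 7-day WGP. The log2 ratios were 2.11 (2.04 to 2.18) and 1.81 (1.74 to 1.88), and 4.76% (3.39 to 6.47), 17.1% (14.4 to 20) and 14.7% (12.9 to 16.6) of the thinned cells had a Cxcl2 UMI (23.2%, 59.3% and 47.9% unthinned). Within clusters the libraries differed less evenly. In cluster 0 Cxcl2 was at 175, 727 and 693 CPM, with log2 ratios to PBS of 2.00 (1.81 to 2.18) and 1.93 (1.75 to 2.11). In cluster 8 it was at 189, 218 and 442 CPM, with 0.20 (0.02 to 0.39) and 1.19 (0.95 to 1.43). In cluster 10 it was already at 1224 CPM in the 6 cells of PBS and at 1097 and 863 CPM after WGP. The higher level of the class at 3 days was thus present within cluster 0 and nearly absent within cluster 8. Cluster 10 held more cells after WGP than in PBS, and the part of this in the class level was not tested.

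The sex mix of this class was far apart between libraries, with 753 Xist cells and 7 Y cells in PBS, 77 and 481 at 3 days, and 563 and 569 at 7 days. Among Xist cells the Cxcl2 ratio was 0.95 at 3 days and 1.89 at 7 days. Among Y cells it was -0.45 and -0.93, against only 7 cells and 41 Cxcl2 UMIs in PBS.

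Cxcl1 was at 6.60, 70.7 and 24.3 CPM in monocyte/macrophage-like cells, with log2 ratios to PBS of 2.28 (2.11 to 2.46) and 1.05 (0.87 to 1.23). Its level was highest in cluster 10, at 126, 100.8 and 57.5 CPM, which held 17 of 56 UMIs in PBS, 715 of 798 at 3 days and 270 of 404 at 7 days, while cluster 8 was at 5.58, 9.49 and 0 CPM. Cxcl3 had 1 UMI in PBS, 431 UMIs (38.2 CPM) at 3 days and 79 UMIs (4.75 CPM) at 7 days, and 430 of the 431 UMIs at 3 days were in cluster 10. At 7 days cluster 10 held 9 of the Cxcl3 UMIs and cluster 0 held 70. Few cells of the class had them: at 3 days Cxcl1 was found in 13.7% and Cxcl3 in 5.41% of the 739 cells.

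Of the receptors, Csf3r was well measured in monocyte/macrophage-like cells and Cxcr2 was not. Csf3r was at 49.0, 73.9 and 85.1 CPM, with log2 ratios to PBS of 0.51 (0.36 to 0.65) and 0.69 (0.55 to 0.82), both under 2-fold. Within clusters it differed little: cluster 0 was at 93.9, 90.2 and 86.3 CPM and cluster 8 at 39.5, 44.0 and 43.0 CPM. Cxcr2 was at 0.24, 2.75 and 1.14 CPM, and was found in 1, 13 and 6 cells.

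S100a8 and S100a9 were higher in monocyte/macrophage-like cells of 3-day WGP, the opposite of their direction in neutrophil-like cells. S100a8 was at 20.7, 192 and 52.8 CPM, with log2 ratios to PBS of 2.72 (2.56 to 2.87) and 1.03 (0.86 to 1.19), and S100a9 at 17.8, 163 and 18.8 CPM, with 2.64 (2.48 to 2.80) and 0.05 (-0.13 to 0.23). In 3-day WGP the 74 cells with the most S100a9 held 98.1% of it, and 1 cell with 59849 UMIs and 11 of the 15 neutrophil markers held 773 of the 1842 UMIs. Cells with UMIs of at least 6 of the 15 neutrophil markers numbered 1 in PBS, 31 at 3 days and 35 at 7 days, compared with 78, 194 and 154 of the neutrophil-like cells. Without them S100a9 was at 9.2, 13.1 and 2.9 CPM, with log2 ratios of 0.27 at 3 days and -0.57 at 7 days, whereas S100a8 was at 10.3, 50.9 and 36.6 CPM and still 1.59 and 1.20 above PBS on the log2 scale. That limit on markers was chosen after the values were seen. The direction also depended on the cluster. In cluster 0, which held 76.1% of the class at 7 days, S100a8 was at 79.3, 202 and 34.4 CPM, a log2 ratio of 1.25 (0.98 to 1.51) at 3 days and -1.01 (-1.27 to -0.74) at 7 days, and the S100a9 ratio was 1.69 (1.40 to 1.98) and -1.17 (-1.46 to -0.87). In cluster 8 S100a8 was at 8.87, 96.7 and 141 CPM, 2.5 and 3.00 above PBS on the log2 scale, and in cluster 10 it was at 44.5 CPM in the 6 PBS cells, 203 CPM at 3 days and 92.0 CPM at 7 days. The higher S100a8 level of the class at 7 days thus turned to a lower one within its main cluster. Without those cells Cxcl2 kept log2 ratios to PBS of 2.06 and 1.82.

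The proportion of S100a8 to S100a9 differed between classes and libraries. Before any cell was left out, UMIs of S100a8 were 1.17, 1.18 and 2.81 times those of S100a9 in this class, compared with 0.78, 0.89 and 0.84 times in neutrophil-like cells and 0.82, 1.03 and 0.89 times in barcodes of 1 to 100 UMIs. In cluster 10 of 7-day WGP 152 of 304 cells had an S100a8 UMI and 16 had an S100a9 UMI.

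Mmp9 had the opposite pattern from the ligands in this class. It was at 80.9 CPM in PBS, 24.0 CPM at 3 days and 2.58 CPM at 7 days, with log2 ratios to PBS of -1.42 (-1.57 to -1.26) and -2.85 (-2.98 to -2.72). Nearly all of it in PBS, 684 of 686 UMIs, was in cluster 8. Within cluster 8 it was at 97.9, 136 and 49.2 CPM, with log2 ratios to PBS of 0.44 (0.21 to 0.67) and -0.87 (-1.46 to -0.27). It was thus higher than PBS within cluster 8 at 3 days and lower at 7 days. Cluster 8 was 80.1%, 16.0% and 2.34% of the cells of the class. The part of this make-up in the lower Mmp9 level of the class was not tested. Retnlg was at 1.89, 4.25 and 0.18 CPM in monocyte/macrophage-like cells.

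**Figure D5:**
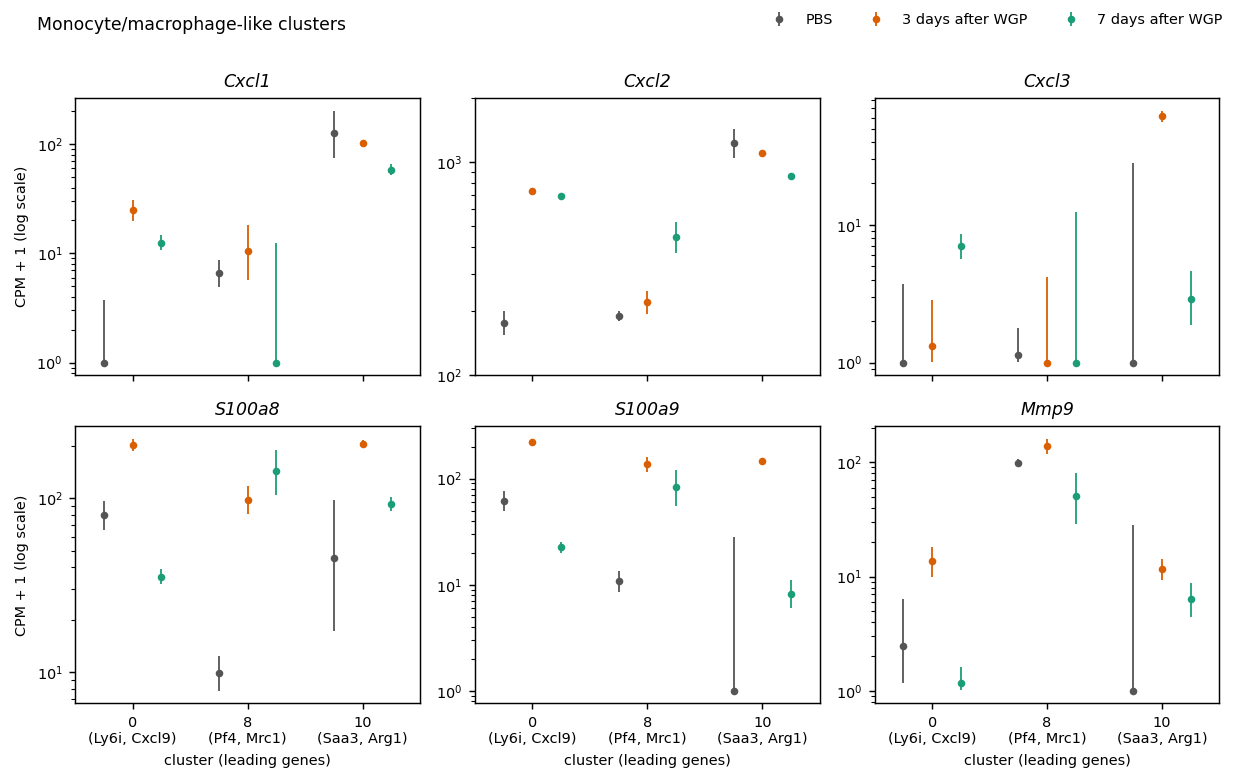
Level of 6 of the genes (CPM + 1, log axis) in the 3 monocyte/macrophage-like clusters of the PBS (grey), 3-day WGP (orange) and 7-day WGP (green) libraries, with 95% counting intervals. Cluster 10 holds the highest Cxcl1 and Cxcl2 levels in each library and only 6 cells in PBS, Cxcl2 in cluster 0 goes from 175 CPM in PBS to 727 and 693 CPM, and Mmp9 is highest in cluster 8.

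Outside these classes, ILC2-like cells and fibroblast-like cells also had ligand RNA. ILC2-like cells, the type 2 innate lymphocytes named by Gata3, Il1rl1 and other markers, had Cxcl2 at 597 CPM in PBS (693 UMIs, 261 cells), 770 CPM at 3 days (672 UMIs, 283 cells) and 1891 CPM at 7 days (96 UMIs, 9 cells). In PBS that was above the 203 CPM of monocyte/macrophage-like cells and below the 2088 CPM of neutrophil-like cells. Thinned, 9.2%, 12.4% and 22.2% of ILC2-like cells had a Cxcl2 UMI (19.9%, 26.1% and 22.2% unthinned), at median depths of 3510, 2815 and 5555 UMIs; the 7-day values rest on 2 cells with the gene, of which 1 held 52 of the 96 UMIs. Cxcl3 was at 21.5 CPM and 21.8 CPM in the ILC2-like cells of PBS and 3-day WGP, close to the 24.5 CPM of neutrophil-like cells in PBS, and Cxcl1 had no UMI in them.

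Fibroblast-like cells, which a CD45+ gate should leave out, showed the reverse. They numbered 29, 38 and 21 cells and had Cxcl1 at 42.1, 296 and 204 CPM (in 5, 18 and 7 of the cells), the highest level of this gene in any named class of each library. Cxcl2 was at 4.68, 24.3 and 4.05 CPM in them and Cxcl3 at 0 in each library. Cxcl1 and Cxcl2 thus had different leading classes, Cxcl1 in fibroblast-like and Cxcl2 in neutrophil-like cells.

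The other classes held little of most of the genes. All cells other than neutrophil-like ones together had Cxcr2 at 0.2, 1.0 and 0.6 CPM. Where S100a9 was high in NK cell-like or B cell-like cells, single cells carried it. Of the 3789 S100a9 UMIs of NK cell-like cells in 3-day WGP, 3784 were in 1 cell with 29584 UMIs and 11 of the 15 neutrophil markers, and the level was 2.53 CPM without it. Of 344 UMIs in B cell-like cells of PBS, 297 were in 1 cell with 69675 UMIs and 11 of the markers. The unnamed cluster 16, whose cells were too shallow to be named, had S100a9 at 4322 CPM and Retnlg at 932 CPM in 3-day WGP.

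Barcodes of 1 to 100 UMIs, which hold RNA that was free in the cell suspension, carried every one of the 9 genes in each library. S100a9 was at 1076 CPM there in PBS, 1074 CPM at 3 days and 393 CPM at 7 days, and S100a8 at 887, 1111 and 349 CPM. Cxcl2 was at 116, 696 and 370 CPM, Cxcl1 at 5.9, 43.9 and 17.5 CPM and Cxcl3 at 0.2, 14.2 and 4.7 CPM, so the free level of each ligand was higher in the WGP libraries, like its level in cells. Cxcr2 was at 3.5, 7.6 and 6.2 CPM, Csf3r at 22.6, 47.4 and 57.1 CPM, Retnlg at 67.7, 47.7 and 28.4 CPM, and Mmp9 at 44.6, 38.1 and 11 CPM. The share of free RNA in a class was read from acinar-cell genes, which immune cells do not make: it was 1.39%, 2.81% and 2.77% of the UMIs of neutrophil-like cells and 10.1%, 2.46% and 1.04% of those of monocyte/macrophage-like cells. In neutrophil-like cells each of the genes that had a UMI was at 70.4 times the level this share gives or more. In monocyte/macrophage-like cells Cxcl2 was at 17.4, 53.0 and 192 times that level. In the same class S100a8 and S100a9 in PBS were at 0.23 and 0.16 times the level expected, which is background by this measure. Read from hemoglobin genes, the free share of monocyte/macrophage-like cells was 0.42% in PBS and 7.04% in 7-day WGP, which put S100a8 at 20.7 CPM above an expected 3.72 CPM in PBS, and S100a9 at 18.8 CPM below an expected 27.7 CPM in 7-day WGP. The pair in PBS, to which the ratios refer, was thus background by the acinar measure and above it by the hemoglobin measure. S100a8 at 7 days, at 52.8 CPM, was above the level expected by both (3.62 and 24.6 CPM).

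Other genes of neutrophil attraction and granules were followed in a list of 31, of which 21 had at least 20 UMIs in each of the 2 classes. In neutrophil-like cells 7 were at least 2-fold higher at 3 days and 6 at 7 days, and 9 were at least 2-fold lower at each time, beside the shares of all genes given above. The medians of the list were 0.23 and -0.10. Icam1, Il1a, Tlr4 and Cxcr1 had 10, 0, 7 and 2 UMIs in PBS and were counted only through the WGP libraries. Cxcr1 is named here after its values were seen. Elane and Mpo each had 0 UMIs at 3 days and 2 at 7 days and were counted only through PBS. The places of these genes in the counts lend no support. Of the higher ones Icam1, the adhesion molecule bound by neutrophil integrins, was at 20.4, 448 and 898 CPM, a log2 ratio of 3.91 at 3 days and 4.90 at 7 days. Il1a, an alarm cytokine, had no UMI in PBS and was at 82.2 and 201 CPM. Tlr4, the receptor for bacterial endotoxin, was at 14.3, 81.2 and 68.8 CPM, and Cxcr4, the receptor that returns aged neutrophils to the marrow, at 222, 735 and 683 CPM. The 9 lower ones were Ltb4r1, a receptor for the attractant leukotriene B4, named here after its values were seen, and 8 granule genes. Of the latter Elane was at 689, 0 and 3.62 CPM, Prtn3 at 945, 24.8 and 109 CPM, Mpo at 179, 0 and 3.62 CPM and Camp at 31005, 5568 and 7879 CPM. These levels are for the class, of which cluster 25 held 74.2%, 19.2% and 20.5% of the UMIs. Camp was at 41798, 28967 and 38364 CPM in cluster 25 and at 7.89, 7.10 and 2.28 CPM in cluster 14. The part of the make-up of the class in the lower levels was not tested.

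In monocyte/macrophage-like cells 6 of the 21 were at least 2-fold higher at 3 days and 7 at 7 days, beside 2.39% and 2.81% of all tested genes. At each time 1 was lower, beside 2.51% and 3.98% of all tested genes. The medians were 0.62 and 0.37. These values are for the class, of which cluster 8 was 80.1%, 16.0% and 2.34% of the cells. The part of that make-up in them was not tested. The formyl peptide receptors stood out, with Fpr2 at 13.4, 253 and 264 CPM, a log2 ratio of 3.49 at 3 days and 3.55 at 7 days, and Fpr1 at 6.95, 74.7 and 61.4 CPM, with 2.32 and 2.07. Il1a was at 2.83, 32.5 and 30.8 CPM and Icam1 at 44.6, 95.9 and 171 CPM. Pf4, the CXC chemokine that also leads cluster 8, was the lower one, at 1881, 553 and 78.5 CPM.

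The genes with the pattern most like S100a9 over 35 sums of a class in a library were Wfdc21, Camp, Ngp, Ltf and Mmp8, with Pearson correlations of log2(CPM + 10) of 0.97 to 0.98. Wfdc21 and Mmp8 were among the markers that named the neutrophil-like class. For Cxcl2 they were Tarm1, Rab20, Lpcat2, Osm and Ets2, with 0.90 to 0.92. The sums share libraries and depth, so these values only describe likeness of pattern.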

How the data were processed

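Live CD45+ pancreas cells were captured with droplet 3' chemistry (v3.1), 1 library each for PBS, 3-day WGP and 7-day WGP. The authors made UMI counts per gene and barcode with Cell Ranger 3.1.0 against mm10 (GRCm38); the deposited matrices hold raw counts for every barcode, with no cell filter, and no value column was left unused (0 columns). The submitters' notes also name Seurat.

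From these counts, barcodes with at least 300 UMIs, at most 30% mitochondrial and at most 40% ribosomal UMIs were kept. Scrublet's automatic threshold marked at most 5 cells a library, so the highest doublet scores were removed up to 0.8% per 1000 barcodes within these limits. Cells of all libraries were normalized with sctransform (Seurat 5.3.0, sctransform 0.4.2, R 4.3.3), clustered together on 3000 variable genes without the 9 genes described (30 components, Louvain resolution 0.8) and named from marker lists by a mean log2 fold of at least 1 over other cells, at least 3 raised markers and a margin of 0.5. Clusters with a median depth under 0.2 of their library stayed unnamed, a limit chosen after the clusters were seen. UMIs were summed per class and library and divided by the class total. Log2 ratios used 10 added CPM and counting intervals at 95%; genes with at least 20 UMIs over the 3 libraries were counted, and at least 2-fold was the size limit. With 1 library a group no test over samples was made. Shares of cells were taken after thinning to 300 UMIs, with exact binomial intervals. Free RNA came from barcodes of 1 to 100 UMIs. The floor for a count of 0 was 3 UMIs. Python 3.11.15 and scanpy 1.11.5 were used, with edgeR 4.0.16 for TMM factors only, and the calculations were tested on simulated data.

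The 9 genes, the list of 31 related genes and the marker lists were chosen with earlier results of these data known. All 9 are named; of the 31, at most the 4 largest past 2-fold in each direction and class are named, and for S100a9 and Cxcl2 the 5 genes of most similar pattern.

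Alternatives covered the UMI minimum (500 or 1000), mitochondrial limit (10%), an upper UMI limit, doublets kept, other clusterings, cells of each sex, added CPM, scaling, free RNA subtracted and thinning. Chosen after the data were seen were cluster 14 alone, the mean over cells, the pair left out of the total, and cells with neutrophil markers left out.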

Additional observations from a re-analysis of the deposited data

Results flagged for a closer look

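S100a8 and S100a9 stood out because they differed from PBS in opposite directions in neutrophil-like and in monocyte/macrophage-like cells. At 3 days the log2 ratio of S100a8 was -1.40 in neutrophil-like cells and 2.72 in monocyte/macrophage-like cells, and at 7 days it was -1.29 and 1.03. At 3 days the ratio of S100a9 was -1.59 in neutrophil-like cells and 2.64 in monocyte/macrophage-like cells. With 1 library a group the difference between the classes was not tested. Beside these values, 31 monocyte/macrophage-like cells of 3-day WGP and 1 of PBS had UMIs of at least 6 of the 15 neutrophil markers, and without such cells the monocyte/macrophage-like ratio at 3 days was 0.27 for S100a9 and 1.59 for S100a8. Within cluster 0 of the monocyte/macrophage-like class the S100a8 ratio was 1.25 at 3 days and -1.01 at 7 days.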

How the results depend on the processing

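The main results were the share of neutrophil-like cells, S100a9 in those cells, Cxcl2 in monocyte/macrophage-like cells, the numbers of genes past 2-fold and the free level of S100a9. Each ratio kept its direction under the alternatives run, except Cxcl2 in Y cells. The share ratio among Xist cells at 7 days was within counting error of PBS. The cause of the values that moved was not tested. The log2 share ratio was 1.12 at 3 days and 0.56 at 7 days among Xist cells, 3.41 and 2.79 among Y cells, and 2.27 and 2.18 for cluster 14 alone. The S100a9 ratio in neutrophil-like cells at 3 and 7 days was -1.66 and -1.68 with the upper UMI limit, -1.56 and -1.45 with doublets kept, -1.85 and -1.89 with libraries clustered apart, -0.080 and -1.58 in Xist cells, -2.46 and -1.01 in Y cells, -1.10 and -1.03 in cluster 14, -1.95 and -1.60 with TMM, and -1.97 and -1.59 with median-of-ratios factors. It was -1.44 at 3 days on log-normalized values, -1.53 at 3 days with the 9 genes among the variable genes, and -1.65 at 7 days as a mean over cells. The Cxcl2 ratio in monocyte/macrophage-like cells was 1.40 and 1.44 with the upper limit, 2.26 and 2.19 with libraries clustered apart, 2.18 and 1.88 with the 9 genes among the variable genes, 0.95 and 1.89 in Xist cells, -0.45 and -0.93 in Y cells, 2.23 and 2.06 with TMM, and 2.24 and 2.06 with median-of-ratios factors. It was 1.59 at 7 days on log-normalized values, 1.88 at 7 days after free RNA was subtracted by the acinar genes, and 1.97 at 3 days as a mean over cells. Free S100a9 in PBS, 3-day WGP and 7-day WGP was at 1159, 1126 and 413 CPM in barcodes of 1 to 50 UMIs and at 674, 727 and 271 CPM in barcodes of 10 to 100 UMIs.

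Of the 9 genes, 6 were past 2-fold in neutrophil-like cells in the main setting, and 5 among Xist cells, 8 among Y cells, 7 with libraries clustered apart, and 4 of the other 7 genes with the S100 pair left out of the total. The share of all genes past 2-fold was counted in the main setting only. The numbers in the other settings are therefore no result about the 9 genes. In these cells Cxcl2 at 3 days ran from 1.14 to 3.05 over all alternatives, Cxcr2 from -1.19 to 0.47 and Csf3r from -0.99 to 2.25. Ratios under 2-fold turned more often: S100a9 in monocyte/macrophage-like cells at 7 days kept its direction in 11 of 18 alternatives. In neutrophil-like cells Cxcr2 kept its direction in 13 of 19 alternatives at 3 days and 17 at 7 days, and Csf3r in 16 at each time. Among ratios of single genes that were past 2-fold as reported, 22 values turned direction. In neutrophil-like cells these were Prtn3 at 3 days (0.33) with the upper limit. Among Xist cells they were Cxcl3 at 7 days (-1.61), S100a8 at 3 days (0.084), Retnlg at 3 and 7 days (0.053 and 0.51), and at 3 days Icam1 (-0.25), Tlr4 (-0.32), Cxcr4 (-0.44) and Camp (0.011). Among Y cells they were at 7 days Tlr4 (-0.62), Elane (0.98) and Mpo (0.98), and Prtn3 at 3 and 7 days (1.34 and 4.88). In monocyte/macrophage-like cells they were S100a8 at 7 days with the upper limit (-0.57), Cxcl3 at 3 days among Xist cells (-0.017), and among Y cells at 3 and 7 days Mmp9 (1.45 and 0.14), Il1a (-1.94 and -2.22) and Pf4 (5.56 and 2.32). The Xist and Y values rest on few cells in some libraries, down to 6 neutrophil-like and 7 monocyte/macrophage-like Y cells in PBS. No paired analysis was possible because each group has 1 library. Depth limits Cxcl1 and Cxcl3 most, with 0 and 12 UMIs in the neutrophil-like cells of PBS.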
